A study of Mus musculus with 15 samples.

Results

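Myostatin, the activins and TGF-beta were followed through 10 genes for ligands, receptors, an antagonist and SMAD proteins in mouse skeletal muscle. The genes were taken by symbol from a table of 22798 genes: the ligands Mstn, Gdf11, Inhba and Tgfb1, the antagonist Fst, the receptors Acvr2a and Acvr2b, and Smad2, Smad3 and Smad7. All 10 were found, and all 10 passed the filter on low counts, which left 17975 genes for testing and which they also passed without the libraries labelled CD47-KO. RNA sequencing was done on total RNA of muscle from C57BL/6 mice aged 12 months, on a normal diet and starved overnight. The groups were sedentary wild-type animals (6 libraries), exercised animals (6 libraries) and animals with the label CD47-KO (3 libraries), whose genotype is given as CD47-/-, a deletion of the cell surface receptor CD47. The labels give neither the muscle sampled nor the kind of exercise, nor whether the exercised mice carried any allele besides their strain, nor whether each library came from a separate animal. P-values therefore measure the spread between these libraries, which may be technical.

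Ligands of this family bind a pair of type II receptors, which recruit and phosphorylate type I receptors. Myostatin, GDF11 and activins use ACVR2A and ACVR2B, whereas TGF-beta uses TGFBR2, and both routes lead to phosphorylation of SMAD2 and SMAD3, which enter the nucleus with SMAD4. Follistatin traps myostatin and activins outside the cell, and SMAD7, itself induced by the pathway, blocks the receptors. In skeletal muscle, myostatin is made by the fibres and limits their growth, activin A promotes wasting, and TGF-beta 1 is known for driving fibrosis.

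Total counts ranged from 50928458 to 70774311 in sedentary libraries, from 54851831 to 77628546 in exercise libraries and from 76005277 to 84364189 in libraries labelled CD47-KO. All 10 fibre markers examined were present in every group. Their summed level was 133307 to 231901 CPM (counts relative to library size, scaled between libraries) in sedentary, 155083 to 259953 CPM in exercise and 112087 to 151038 CPM in CD47-KO libraries, where 3 of the 10 were called lower against either group. Cd47, the gene named by the knockout label, had 11.5 to 12.1 CPM under that label, 11.4 to 16.4 CPM in the sedentary and 10.8 to 15.7 CPM in the exercise group, with a log2 fold change of -0.26 (SE 0.17) against sedentary (adjusted p = 0.295 by edgeR). The group is therefore called by its label, and each direction drawn from it is that of the libraries so labelled. Fold changes of these libraries also followed the GC content of the transcripts: Spearman's rho over 10396 expressed genes (genes, not replicates) was -0.670 against sedentary and 0.0186 for exercise against sedentary. A correction for this trend was therefore run and its values are given beside the results. The 3 libraries may also be a batch of their own, and that batch and the group cannot be told apart.

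Promoter sequences of 7 of the 10 genes were found in RefSeq (GRCm38.p6), Fst, Smad2 and Smad7 being the others. Those of Mstn and Acvr2a are shown because these were the genes whose RNA rose in the libraries labelled CD47-KO. Each is the stretch of 250 bases before the start of the gene, written 5′ to 3′ on the strand of the gene, with capitals for TATAAA (the TATA box) and for CAGAC or its reverse complement GTCTG (the core SMAD binding sequence). The Mstn stretch is chr1:53061390-53061639, plus strand, and the Acvr2a stretch is chr2:48813859-48814108, plus strand.
Mstn: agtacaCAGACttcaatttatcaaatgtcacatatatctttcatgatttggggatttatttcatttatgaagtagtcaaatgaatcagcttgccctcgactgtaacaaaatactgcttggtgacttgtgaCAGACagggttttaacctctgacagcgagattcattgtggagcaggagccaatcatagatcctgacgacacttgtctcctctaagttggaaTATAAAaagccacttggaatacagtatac
Acvr2a: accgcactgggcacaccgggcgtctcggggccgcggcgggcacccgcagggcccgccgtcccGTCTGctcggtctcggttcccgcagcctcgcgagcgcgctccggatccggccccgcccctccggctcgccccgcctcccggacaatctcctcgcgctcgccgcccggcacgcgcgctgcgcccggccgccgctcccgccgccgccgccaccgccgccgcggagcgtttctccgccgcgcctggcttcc

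The pair differed in base composition. The Mstn stretch had 38.4% G and C, with 3 CG pairs, whereas that of Acvr2a had 82.0%, with 49 CG pairs. Mstn held TATAAA 29 bases before its start, and CAGAC at 244 and 120 bases before it. It also held 4 matches to CANNTG, the general E-box sequence, with the letters CAAATG or CACTTG. Acvr2a held GTCTG at 188 bases and neither of the other motifs. Among all 32851 promoter stretches of that length, searched on both strands, 12.4% held TATAAA, 42.2% held CAGAC and 66.2% held CANNTG. A TATA box sequence was also present in Gdf11 and Inhba, at 185 and 91 bases before the start, and absent as letters from Acvr2b, Tgfb1 and Smad3. The transcripts had another order: transcript GC content was 37.8% for Mstn and 40.4% for Acvr2a, below 43.6% for Inhba, 46.5% for Smad2 and 47.2% for Fst. It was 52.5% for Gdf11, 53.7% for Smad3, 56.2% for Tgfb1, 58.6% for Smad7 and 59.0% for Acvr2b, against a median of 50.1% over the genes tested.

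Smad3 and Mstn were the most abundant of the 10 genes per length of transcript. In sedentary muscle Smad3 had 16.5 ± 6.31 (SD, n = 6) CPM per kilobase of exon and Mstn 11.8 ± 6.12, a difference smaller than their spread. Gdf11 followed at 2.55 ± 0.801, Tgfb1 at 1.60 ± 0.901, Acvr2a at 1.25 ± 0.473, Smad7 at 1.07 ± 0.252 and Smad2 at 0.725 ± 0.219. The gap between Gdf11 and Tgfb1 was slightly larger than either SD, while Tgfb1 and Acvr2a, and Acvr2a and Smad7, differed by less than the larger SD of each pair. Smad7 and Smad2 differed by more than either SD. Acvr2b at 0.409 ± 0.146, Fst at 0.322 ± 0.140 and Inhba at 0.0699 ± 0.0774 CPM per kilobase were the least abundant. In exercised muscle the order from the top was Smad3, Mstn, Gdf11 and Tgfb1, and in the libraries labelled CD47-KO it was Mstn, Smad3, Acvr2a and Gdf11, where Acvr2a had 6.19 ± 0.334 (SD, n = 3) CPM per kilobase.

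**Figure D1:**
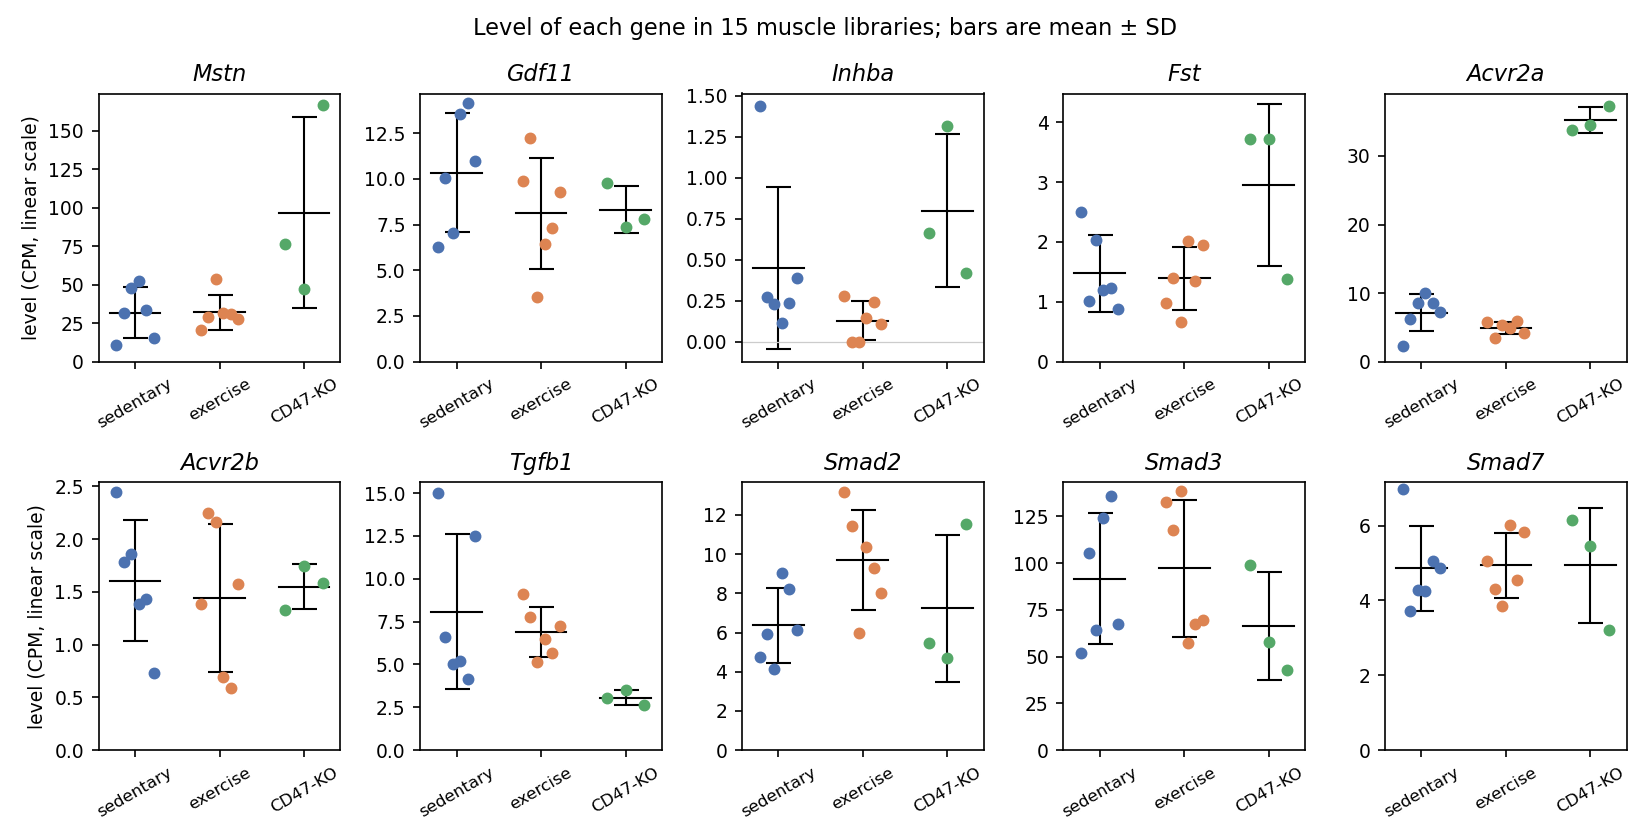
Level of each of the 10 genes in CPM (linear axis, one scale per gene) in 6 sedentary, 6 exercise and 3 CD47-KO libraries; points are libraries, horizontal lines are means and error bars are SD. The 3 CD47-KO libraries lie above all others for Acvr2a (33.8 to 37.4 CPM) and below all others for Tgfb1 (2.64 to 3.51 CPM), while exercise and sedentary libraries overlap for each gene.

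The first comparison, of libraries labelled CD47-KO with sedentary libraries, asks which of these genes differ with the knockout. Mstn and Acvr2a rose and Tgfb1 fell, while the other 7 genes did not pass (quasi-likelihood test of edgeR, Benjamini-Hochberg adjusted p below 0.05 over all genes tested). The 2 genes that rose encode a ligand and 1 of its receptors, and Tgfb1 was the 1 gene that fell. Whether the changes of these genes are related was not tested. Of all genes tested, 11.9% were called higher and 8.75% lower, 20.7% in all, and the count of 3 in 10 is to be read against that share. After the GC correction 1 of the 10 passed, with 3.96% of all genes higher and 4.33% lower. The median log2 fold change was 0.10 for the 10 genes and -0.11 for all genes. Against exercise libraries, which were compared with the same 3 libraries, the same 3 genes passed in the same directions, where 20.6% of all genes passed (12.2% higher, 8.34% lower). The libraries labelled CD47-KO did not overlap the sedentary ones for 2 of the 10 genes and the exercise ones for 3 of the 10, against 26.0% and 31.7% of all genes.

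Among the ligands, Mstn (myostatin; chromosome 1 from 53061640 to 53068079, GRCm38) had 76.4 CPM in library 1 labelled CD47-KO, 47.5 CPM in library 2 and 166 CPM in library 3. In sedentary muscle its lowest, median and highest levels were 10.9, 32.4 and 52.1 CPM. Libraries 1 and 3 labelled CD47-KO lay above every sedentary library, while library 2 lay among the highest sedentary ones. The log2 fold change was 1.60 (SE 0.44, adjusted p = 0.0172) against sedentary and 1.59 (SE 0.44, adjusted p = 0.0173) against exercise by edgeR, or about 3.04-fold and 3.01-fold. Both calls rested on library 3: without it the values were 1.01 (adjusted p = 0.183) and 1.00 (adjusted p = 0.186) by edgeR. Both were also lost when only numbers 1 to 3 of the sedentary and exercise libraries were used. The values were then 1.77 (adjusted p = 0.0513) and 1.59 (adjusted p = 0.0740) by edgeR. With the correction for GC content the direction turned, to -0.22 (SE 0.45, adjusted p = 0.846) and -0.37 (SE 0.45, adjusted p = 0.713) by edgeR. In transcript GC content Mstn lay at percentile 1.39 of the genes tested (Acvr2a at 4.92), near the low end of the curve used for the correction.

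Tgfb1 (TGF-beta 1; chromosome 7 from 25687002 to 25705077) moved the other way. Libraries 1 to 3 labelled CD47-KO had 3.06, 3.51 and 2.64 CPM, against a lowest, median and highest level of 4.13, 5.92 and 15.02 CPM in sedentary muscle. The groups did not overlap, as for 10.3% of all genes in this direction, nor did they against exercise (14.1%). The log2 fold change was -1.40 (SE 0.39, adjusted p = 0.0173) against sedentary and -1.17 (SE 0.38, adjusted p = 0.0392) against exercise by edgeR, with 6.90 ± 1.46 (SD, n = 6) CPM in exercise. After the GC correction it was -0.90 (adjusted p = 0.122) and -0.67 (adjusted p = 0.264) by edgeR, so the direction stayed and the calls were lost. The call against sedentary was also lost without library 1 labelled CD47-KO (-1.35, adjusted p = 0.0747 by edgeR) or library 3 (-1.26, adjusted p = 0.0957 by edgeR). The call against exercise was lost in 9 of 15 fits that each left out a library, with values from -1.32 to -1.02. These left out sedentary 2, exercise 1, 2, 4, 5 and 6, and each CD47-KO library.

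Gdf11, the closest relative of myostatin, and Inhba, the subunit of activin A, did not pass. Gdf11 had 9.79, 7.39 and 7.78 CPM in the libraries labelled CD47-KO, within the sedentary range of 6.27 to 14.1 CPM. Its log2 fold change was -0.31 (SE 0.33). Inhba was the rarest of the 10, with 0 to 115 counts per library. It had 0.663, 1.32 and 0.418 CPM in the libraries labelled CD47-KO. In sedentary libraries it had 0.112, 0.255 and 1.44 CPM as lowest, median and highest levels. Against exercise, where 2 of 6 libraries had 0 counts and the highest had 0.280 CPM, the groups did not overlap, as for 17.5% of all genes in this direction. There the log2 fold change was 2.60 (SE 0.96, adjusted p = 0.0656 by edgeR), and it passed by DESeq2 (2.68, adjusted p = 0.0254) and by limma-voom (3.23, adjusted p = 0.0198).

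The type II receptors parted. Acvr2a (chromosome 2 from 48814109 to 48903269), which binds activins and myostatin, was at 33.8, 34.5 and 37.4 CPM in the 3 libraries labelled CD47-KO. Sedentary muscle had a lowest, median and highest level of 2.26, 7.89 and 9.95 CPM, and exercised muscle of 3.43, 5.08 and 5.87 CPM. All 3 libraries lay above all 12 others, with no overlap, as for 15.7% of all genes against sedentary. The log2 fold change was 2.30 (SE 0.31, adjusted p = 0.000112) against sedentary and 2.84 (SE 0.31, adjusted p = 1.64e-05) against exercise by edgeR, or 4.94-fold and 7.18-fold. With the GC correction, under which 8.28% of all genes passed against sedentary (3.96% higher, 4.33% lower) and 8.32% against exercise (4.73% higher, 3.58% lower), it was 0.97 (SE 0.21, adjusted p = 0.0107) and 1.40 (SE 0.21, adjusted p = 0.000796) by edgeR. Acvr2a was the 1 gene of the 10 that passed there, and it passed in all 30 alternative analyses of each comparison, although the size of its change depended on the correction.

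Acvr2b (chromosome 9 from 119402118 to 119434995), the paralog that binds the same ligands, lay within the range of the other groups. It had 1.33, 1.74 and 1.58 CPM in the libraries labelled CD47-KO, with a sedentary range of 0.732 to 2.45 CPM and an exercise range of 0.588 to 2.25 CPM. The log2 fold change was -0.05 (SE 0.43) against sedentary and 0.11 (SE 0.43) against exercise, and with the GC correction 0.47 and 0.65, none of which passed. Fst, the antagonist, had 3.73, 3.72 and 1.38 CPM in the libraries labelled CD47-KO, against 0.882, 1.22 and 2.50 CPM as lowest, median and highest sedentary levels. Libraries 1 and 2 lay above all 12 exercise and sedentary libraries, and library 3 lay among them. Its log2 fold change was 0.99 (SE 0.41, adjusted p = 0.103) against sedentary and 1.08 (SE 0.41, adjusted p = 0.0765) against exercise by edgeR. Without library 3 labelled CD47-KO it passed in both, at 1.38 (adjusted p = 0.0471) and 1.47 (adjusted p = 0.0327) by edgeR. Against exercise it also passed by edgeR without sedentary library 6 (adjusted p = 0.0441), without sedentary 1 and 6 (0.0400), with the 2 groups alone (0.0489) and with numbers 1 to 3 alone (0.0274), and by DESeq2 (0.0403). Against sedentary it also passed with numbers 4 to 6 alone (1.46, adjusted p = 0.0240 by edgeR). Whether Fst passed thus depended on the libraries used in both comparisons, and against exercise also on the tool and the model.

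None of the 3 SMAD genes passed in either comparison. Smad3, the more abundant of the activated SMADs, had 98.8, 57.6 and 43.0 CPM in the libraries labelled CD47-KO, within 51.9 to 136 CPM in sedentary muscle except for library 3. Smad2 had 5.47, 4.71 and 11.5 CPM, where library 3 lay above the sedentary range of 4.13 to 9.04 CPM. Smad7, the inhibitory SMAD, had 6.14, 5.45 and 3.22 CPM against 3.73 to 6.97 CPM. Against sedentary the log2 fold changes were -0.46 (SE 0.38) for Smad3, 0.19 (SE 0.32) for Smad2 and 0.02 (SE 0.25) for Smad7. After GC correction they were -0.14, -0.20 and 0.54. Library 3 labelled CD47-KO thus held the highest Mstn and the lowest Smad3 and Smad7 of the 15 libraries, and within its group the highest Smad2 and the lowest Fst.

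**Figure D2:**
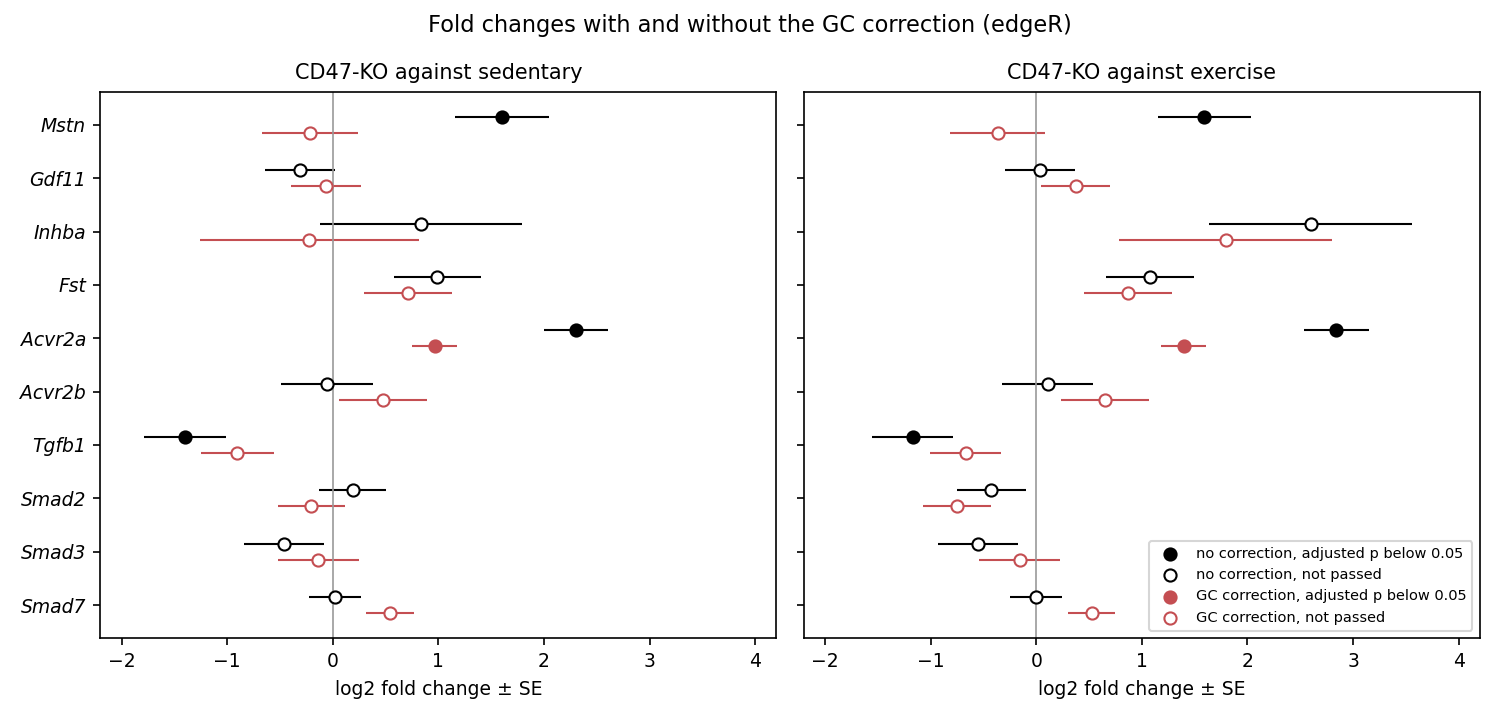
Log2 fold change ± SE of each gene in the libraries labelled CD47-KO against sedentary (left) and exercise (right), without (black) and with (red) the correction for GC content; filled points passed an adjusted p of 0.05. Acvr2a is filled in both colours, at 2.30 and 0.97 on the left, while Mstn moves from 1.60 to -0.22.

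The fold changes of the 10 genes followed the GC content of their transcripts as those of other genes did. Across the 10 genes, which are not replicates, rho between transcript GC content and the fold change against sedentary was -0.770. Mstn and Acvr2a, the genes lowest in GC content, were those that rose. Single libraries differed too: the correlation of each library's levels, relative to the mean of all libraries, with GC content was -0.644 to -0.613 in the libraries labelled CD47-KO, -0.142 to 0.513 in sedentary and -0.0173 to 0.460 in exercise libraries. How much of each change goes with the sequencing of GC-poor transcripts and how much with the group cannot be told apart, since all 3 libraries share both.

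**Figure D3:**
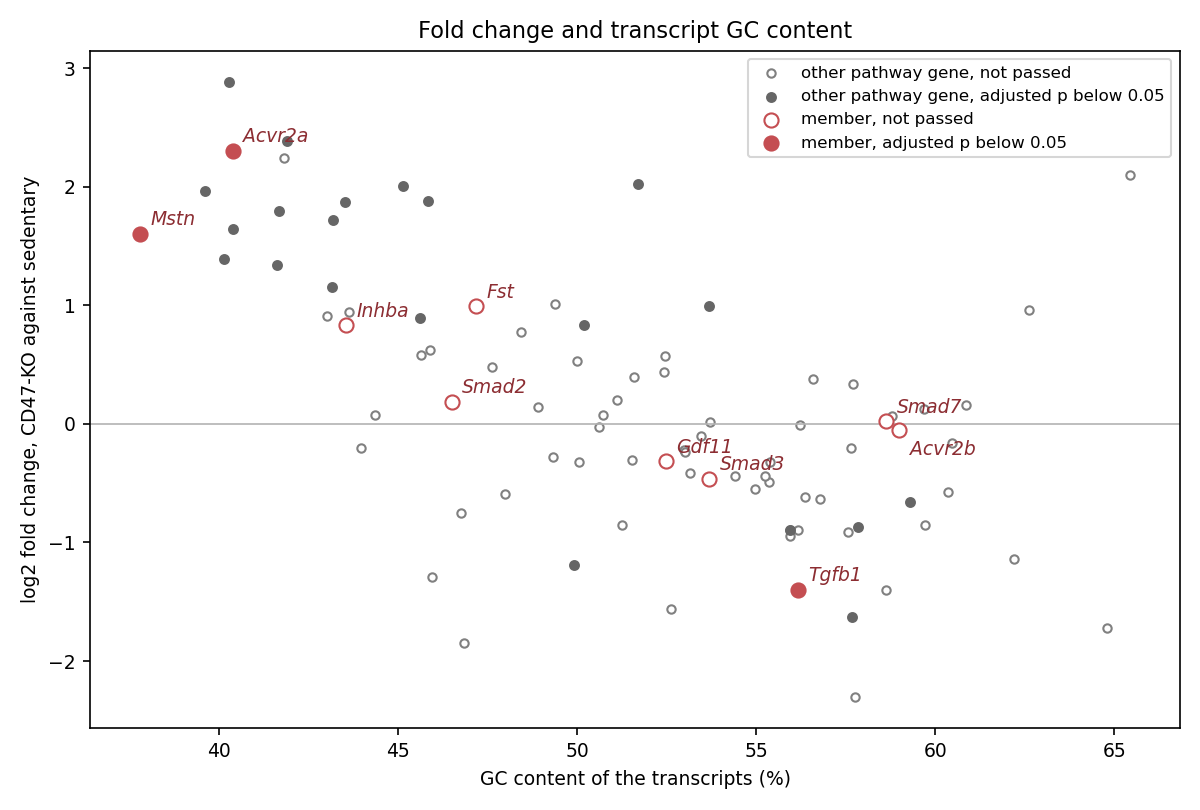
Log2 fold change in the libraries labelled CD47-KO against sedentary, by transcript GC content (%), for the 10 genes (red, named) and 81 other genes of the pathway (grey); filled points passed an adjusted p of 0.05. Fold changes are high at the left, where Mstn (37.8% GC) and Acvr2a (40.4%) lie, and Tgfb1 (56.2%) lies among the falls at the right.

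The other genes of the pathway were read from 5 lists by role, with 81 of 87 genes tested. Against sedentary 16 rose and 5 fell, where 11.9% of all genes were called higher and 8.75% lower. After the GC correction 9 rose and 2 fell, where those shares were 3.96% and 4.33%. Of the 16 rises 8 were kept and of the 5 falls 0, so the 2 falls after correction were of other genes. The 81 genes had a median log2 fold change of -0.01 (-0.11 for all genes). The receptor list had 5 of 12 higher (11.9% of all genes) and 1 lower (8.75%). Those that rose included Bmpr2 (1.97, SE 0.31), the type II receptor for BMPs, and the BMP type I receptors Bmpr1b (2.002, SE 0.32) and Bmpr1a (1.15, SE 0.24). Tgfbr1, the type I receptor of TGF-beta, had 1.87 (SE 0.36) with 43.97 ± 3.63 (n = 3) against 12.0 ± 5.80 CPM (n = 6). The co-receptor Tgfbr3 also rose, and the endothelial receptor Acvrl1, with -1.63 (SE 0.43), was lower. With the GC correction Bmpr1b (1.45) and Tgfbr3 (0.89) passed, and Tgfbr1 had 1.04 (adjusted p = 0.0504 by edgeR).

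Of 18 other SMADs and regulators, 5 rose (11.9% of all genes) and 1 fell (8.75%). The genes that rose were the ubiquitin ligase Trim33 (1.72, SE 0.27), the deubiquitinases Usp15 (1.79, SE 0.31) and Usp9x (1.64, SE 0.38), the SMAD repressor Skil (1.34, SE 0.29) and the BMP-activated Smad5 (0.89, SE 0.20). Pmepa1, a feedback inhibitor induced by TGF-beta, fell (-0.90, SE 0.24; 11.4 ± 2.50 against 21.2 ± 3.27 CPM, n = 3 and 6). With the GC correction Trim33 (0.83) and Usp15 (0.68) kept their calls. None of 13 other ligands passed against sedentary, where Gdf1 had -1.72 (SE 0.71) and Tgfb2 0.48 (SE 0.22). Gdf1 shares a transcript with Cers1, so its reads are uncertain. Of 18 antagonists and activators of the ligands, the proteoglycan Dcn rose (1.39, SE 0.26), and Lrrc32, which tethers latent TGF-beta, fell (-0.87, SE 0.29). Under the GC correction Dcn had -0.14 and Lrrc32 -0.35, and neither passed. The latency proteins Ltbp4 (-1.14, SE 0.41) and Ltbp3 (-0.57, SE 0.21) did not pass.

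Among 20 target genes, 5 rose (11.9% of all genes) and 2 fell (8.75%), the latter close to the background. The muscle ubiquitin ligases rose: Fbxo30 had 2.89 (SE 0.44), Trim63 2.02 (SE 0.36) and Fbxo32 1.88 (SE 0.36), with 2823 ± 948 against 766 ± 360 CPM for Fbxo32 (n = 3 and 6). The kinase gene Akt1 (-0.66, SE 0.17) and the smooth muscle actin gene Acta2 (-1.19, SE 0.33) fell. The other targets that rose were Postn (2.39, SE 0.70) and Cdkn1a (0.99, SE 0.31). Postn, Cdkn1a, Acta2, Usp9x, Pmepa1, Tgfbr3 and Acvrl1 lie outside the rule for naming genes and were named after their values were seen, to complete the counts. Under that correction the 3 ubiquitin ligases kept their calls, at 1.57, 2.24 and 1.42, as did Cdkn1a at 1.36. The 3 ligase genes are also known targets of FoxO factors.

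Against exercise 17 of the 81 genes rose (12.2% of all genes) and 7 fell (8.34%, so this count is at the background). After the GC correction 9 rose (4.73%) and 2 fell (3.58%). The receptor list gave 5 higher and 1 lower, the SMAD list 6 and 1, the target list 4 and 2, the antagonist list 2 and 2 and the ligand list 0 and 1. Gdf1 (-2.13, SE 0.73) was the ligand that fell. Lrrc32 (-1.42, SE 0.30) and Wfikkn2 (-0.85, SE 0.23), a binding protein that inhibits myostatin, fell, while Dcn (1.29, SE 0.26) and the BMP antagonist Chrdl1 (1.73, SE 0.58) rose. Under the GC correction Gdf1, Dcn and Chrdl1 lost their calls, and only 1 of Lrrc32 and Wfikkn2 kept its call. Of the 17 rises and 7 falls among the 81 genes, 7 and 1 were kept. The comparison shares its 3 libraries with the one against sedentary.

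Markers of other cell types were summed as a measure of what else the tissue pieces held. The 6 fibroblast markers summed to 263 to 316 CPM in libraries labelled CD47-KO against 97.3 to 210 CPM in sedentary, most of it Dcn, with 2 higher and 1 lower. The 7 macrophage and leukocyte markers summed to 36.8 to 53.3 against 11.96 to 59.9 CPM, with 1 higher. The 6 endothelial markers summed to 157 to 192 against 149 to 356 CPM, with 1 lower. The 6 satellite cell markers summed to 87.1 to 94.9 against 58.7 to 83.0 CPM, with 1 higher and 1 lower. No marker of these 4 lists was at 0 throughout a group. Their part, and that of the lower fibre markers, in the values of Mstn, Tgfb1, Fst and the receptors was not tested, and in bulk tissue fewer cells of a type and less RNA per cell cannot be told apart.

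The comparison of exercised with sedentary muscle asks which genes of this pathway differ after exercise. None of the 10 genes and none of the 81 others passed, as none of 17975 genes did (0%) by edgeR, where 665 had an unadjusted p below 0.05 and DESeq2 called 9. The GC correction gave 1 call among all genes (0.00556%, lower) and 0 among the 10. No gene of the 10 separated the groups, as 0.161% of all genes did (0.100% higher, 0.0612% lower). Smad2 had the lowest unadjusted p of the 10. Its levels were 13.2, 11.4, 5.96, 10.4, 9.32 and 8.02 CPM in exercise libraries 1 to 6 and 4.76, 5.91, 4.13, 9.04, 8.24 and 6.11 CPM in sedentary libraries 1 to 6. In 4 of 6 exercise libraries it was above every sedentary library, with a log2 fold change of 0.61 (SE 0.26, unadjusted p = 0.0335 and adjusted p = 0.99981 by edgeR). Acvr2a had -0.54 (SE 0.26, unadjusted p = 0.0553 by edgeR), with 4.90 ± 0.936 against 7.13 ± 2.69 CPM (SD, n = 6 each). Inhba had -1.77 (SE 0.84, unadjusted p = 0.0522 by edgeR), where sedentary library 1 alone, at 1.44 CPM, held the highest value. Without that library it was -0.92 (SE 0.81).

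Mean levels of the other genes differed by less than the spread between libraries. Mstn had 32.1 ± 11.3 in exercise against 31.9 ± 16.6 CPM in sedentary (SD, n = 6 each) and a log2 fold change of 0.01 (SE 0.38), whose sign depended on the analysis. Smad7 had 4.93 ± 0.860 against 4.86 ± 1.14 CPM. Gdf11 had -0.35 (SE 0.27), Tgfb1 -0.23 (SE 0.30), Acvr2b -0.16 (SE 0.35), Fst -0.09 (SE 0.35) and Smad3 0.08 (SE 0.30). The Tgfb1 value turned to 0.39 without sedentary libraries 1 and 6, which held its highest levels, 15.022 and 12.5 CPM.

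The comparison was also made within replicate numbers 1 to 3 and within numbers 4 to 6, a split that no label names. The 6 Schwann cell and nerve markers summed to 61.6 to 114 CPM in exercise 1 to 3. In exercise 4 to 6 they summed to 30.6 to 46.1 CPM. The sedentary sets had 69.5 to 239 and 39.0 to 49.8 CPM. The 6 liver markers summed to 6.50 to 10.7 CPM in exercise 1 to 3 and 0.0782 to 0.238 CPM in 4 to 6. Fibre sums also separated the exercise sets, while liver and fibre sums overlapped between sedentary sets. The part of these tissues in the values below was not tested. Exercise libraries 1 to 3 had 133, 118 and 138 CPM of Smad3 and exercise libraries 4 to 6 had 57.2, 67.4 and 69.5 CPM. Sedentary libraries showed the opposite, with 51.9, 105 and 64.4 CPM in numbers 1 to 3 and 124, 136 and 67.6 CPM in numbers 4 to 6; the sets overlapped, since sedentary 2 was above sedentary 6. Its log2 fold change was 0.79 within numbers 1 to 3 and -0.76 within numbers 4 to 6, a difference of -1.57 (SE 0.42, unadjusted p = 0.00267, adjusted p = 0.959 by edgeR over all genes). Fst lay the other way, at -0.89 and 0.67, a difference of 1.54 (SE 0.56, unadjusted p = 0.0175, adjusted p = 0.959 by edgeR). Gdf11, Mstn and Smad7 also changed sign between the sets, with smaller differences, and no gene of 17975 passed the test of the difference (864 at an unadjusted p below 0.05).

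Mstn and Tgfb1 ran opposite to each other from library to library. Sedentary library 1 held the lowest Mstn (10.9 CPM) and the highest Tgfb1 (15.02 CPM), and sedentary library 6 was next in both (15.6 and 12.5 CPM). Both libraries stood apart in markers of other tissue. The 6 tendon markers summed to 729 CPM in sedentary 1, against 31.8 to 271 CPM in the other exercise and sedentary libraries, and its fibre sum, 133307 CPM, was the lowest of the 12 and its macrophage sum, 59.9 CPM, the highest. The 6 adipocyte markers summed to 557 CPM in sedentary 6, against 88.5 to 178 CPM in the others. The part of these tissues in the levels of Mstn and Tgfb1, and in the sign change of Tgfb1 without both libraries, was not tested. Over the 12 exercise and sedentary libraries Pearson's r of the log2 levels was -0.913 (permutation p = 6e-05, adjusted p = 0.0027 over 45 pairs of the 10 genes) and Spearman's rho was -0.909 (permutation p = 0.00012, adjusted p = 0.0054). It was the 1 pair of 45 that passed. The permutation took the 12 libraries as exchangeable, although exercise and sedentary libraries of equal number were correlated, so these p-values may be too small. Within a group each number occurs once. Without sedentary libraries 1 and 6, those farthest from the median of Mstn, r was -0.744 (permutation p = 0.0135, n = 10). Within sedentary libraries r was -0.921 (exact permutation p = 0.0236, n = 6) and rho -0.771 (exact permutation p = 0.103). Within exercise libraries they were -0.891 (exact permutation p = 0.0125, n = 6) and -0.886 (exact permutation p = 0.0333). Within numbers 1 to 3 r was -0.992 (exact permutation p = 0.00278, n = 6) and within numbers 4 to 6 it was -0.835 (exact permutation p = 0.0694, n = 6), with rho of -0.943 and -0.886. On levels corrected for GC content r was -0.614 (permutation p = 0.0351) and rho -0.476 (permutation p = 0.123). These p-values are for this pair alone and were not adjusted over the 45 pairs. On the corrected levels the pair was not the strongest. Fst and Smad3 had r of -0.808, Fst and Smad7 0.679 and Mstn and Acvr2b 0.639. Mstn is poor and Tgfb1 rich in G and C, and the pair was picked from these libraries after its values were seen.

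**Figure D4:**
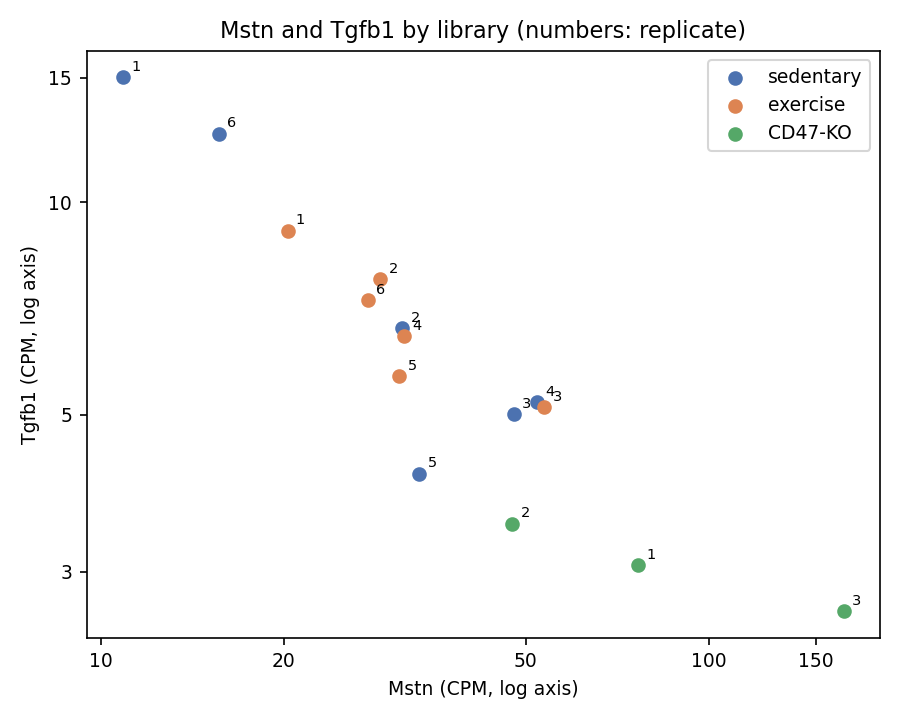
Level of Tgfb1 against that of Mstn in each library (CPM, both axes logarithmic); colours are groups and the small numbers are replicates. Points descend from sedentary 1 (10.9 and 15.02 CPM) at the upper left to CD47-KO 3 (166 and 2.64 CPM) at the lower right.

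Of genes outside the pathway with a mean log2-CPM of at least 1, those with the pattern most like Mstn over all 15 libraries were Cpd, Mtmr6, Phkb, Pias2 and Ulk2, with Pearson's r of 0.955 to 0.939. Over the 12 exercise and sedentary libraries they were Phkb, Lrp2bp, Mtmr6, Ulk2 and Crot, with r of 0.965 to 0.939. Phkb, a subunit of the kinase that activates glycogen phosphorylase, stood in both sets, as did Mtmr6 and Ulk2. The transcripts of these genes had a GC content of 42.6 to 47.5%, all below the median of genes tested.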

How the data were processed

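The authors deposited raw counts per gene, a column for each library, and 0 columns lacked a sample. The tools were HTSeq 0.6.1, HISAT2 2.0.1 and Trimmomatic 0.30 on the build GRCm38, per the submitters' processing notes. Whether counting used strand is not stated in them. Values of 4, 8 and 12 made up 32.1 to 50.2% of those from 1 to 15, so low values, as of Inhba, may not be counts of single reads. The share was 32.1 to 33.6% in the libraries labelled CD47-KO and 41.7 to 50.2% in exercise and sedentary libraries, without overlap. The cause of this difference was not tested, and it bears on each comparison with the CD47-KO libraries.

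Counts were filtered with filterByExpr, normalised by TMM and fitted for all 15 libraries in a robust quasi-likelihood model (edgeR 4.0.16, R 4.3.3), with Benjamini-Hochberg adjustment and a threshold of 0.05. Standard errors came from the fold change and its F statistic. Length and GC content of transcripts came from GENCODE (GRCm38), with 22716 symbols matched once, and the GC correction used as offset a lowess curve (span 0.3) of log2-CPM deviations on GC content. Alternatives included DESeq2 1.42.0, limma-voom (limma 3.58.1) and leaving out each library. The fits were also run on simulated data with either no GC trend or a single linear one shared by the CD47-KO libraries. Trends in the real libraries also varied within groups, so these simulations cannot show how the correction performs under that variation. No library was a copy of another: chi-square over its degrees of freedom was at least 72.0 within groups.

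Replicate numbers in the titles were checked as pairs by correlating deviations from group means. For the 6 pairs of equal number in exercise and sedentary the correlation was 0.273 to 0.539. Only 2 of the 6 correlated best with their own number. Each exercise library correlated best with a sedentary library of its own set of numbers, 1 to 3 or 4 to 6. Exercise 4 to 6 also carry other numbers in the descriptions. Pairing by number rests on this check alone. The main fit held no term for it, and it entered only the alternatives with a replicate block. For CD47-KO and sedentary the correlation was -0.192 to 0.208, and these were not taken as paired. All 10 genes are named, with up to 4 genes of lowest p per list. The genes and lists were chosen with earlier results of these data known. The correlations of pairs, with their subsets, and the test between sets of numbers were added after seeing the data.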

Additional observations from a re-analysis of the deposited data

Results flagged for a closer look

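Of 20 sets of 6 libraries (each of the 10 genes in sedentary and in exercise), 2 had a library far from the others, where about 1 in 20 would by chance. Mstn was at 53.6 CPM in exercise library 3, against 20.3 to 31.6 CPM in the other exercise libraries, with a gap of 0.661 of the whole range. Inhba was at 1.44 CPM in sedentary library 1, against 0.112 to 0.387 CPM in the other sedentary libraries, with a gap of 0.792 of the range.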

How the results depend on the processing

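Acvr2a kept its direction and its call in both CD47-KO comparisons under all 30 alternatives, at log2 fold changes of 0.91 to 2.71 against sedentary and 1.33 to 3.01 against exercise (highest adjusted p = 0.0307 and 0.00405 by any of the tools edgeR, DESeq2 and limma-voom). Mstn passed in 25 of 30 in each, and Tgfb1 in 24 of 30 against sedentary and 15 of 30 against exercise. The cause of the changes below was not tested.

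GC correction gave 1489 genes and 1 of the 10 against sedentary, 1495 and 1 against exercise, and 1 gene for exercise against sedentary. Against sedentary it turned Mstn to -0.22, Inhba to -0.22, Acvr2b to 0.47 and Smad2 to -0.20. Against exercise it turned Mstn to -0.37 and Smad7 to 0.53. Correction for GC content and length gave 1509 genes and 1 of the 10 against sedentary, with Mstn at -0.16, Inhba at -0.23, Acvr2b at 0.47 and Smad2 at -0.37, and 1720 genes and 1 of the 10 against exercise, with Mstn at -0.31 and Smad7 at 0.53. For exercise against sedentary it gave Smad3 -0.024 and Smad7 -0.00097.

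With the replicate block alone no call among the 10 changed in exercise against sedentary, where 0 genes passed. Numbers do not pair the CD47-KO libraries, where the block gave 4842 genes against sedentary and 4980 against exercise, with 3 of the 10 in each, and turned Acvr2b to -0.24 and Smad7 to 0.041 against exercise. With GC correction and the replicate block 2397 genes and 1 of the 10 passed against sedentary, with Mstn at -0.53, Gdf11 at 0.20, Acvr2b at 0.074 and Smad2 at -0.030. Against exercise 2458 genes and 1 of the 10 passed, with Mstn at -0.74 and Smad7 at 0.61. The set of numbers as a block gave 1 gene for exercise against sedentary, and Acvr2b -0.26 and Smad7 0.062 for CD47-KO against exercise.

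For exercise against sedentary, Mstn and Smad7 were at -0.0024 and -0.0080 with RLE factors, -0.0022 and -0.0074 by DESeq2, which called 9 genes, and -0.0042 and -0.012 with at least 1 CPM in 3 libraries, a filter that left Inhba untested. Numbers 1 to 3 alone gave Gdf11 0.12 and Smad7 -0.20. Numbers 4 to 6 alone gave Mstn -0.17, Fst 0.67 and Smad3 -0.76. Without sedentary 1 and 6, Mstn was at -0.36, Fst 0.019, Tgfb1 0.39 and Smad3 -0.15. For CD47-KO against sedentary, limma-voom gave Smad7 -0.011, numbers 1 to 3 alone 5588 genes and Gdf11 0.17, and numbers 4 to 6 alone Acvr2b 0.43 and Smad2 -0.059. For CD47-KO against exercise, Smad7 was at 0.055 with RLE factors, 0.054 by DESeq2 (5 of the 10 passed), 0.046 without a filter, 0.016 with the CPM filter, 0.089 with the 2 groups alone, 0.25 with numbers 1 to 3 alone and 0.041 without sedentary 1 and 6 (5 of the 10 passed). Acvr2b was at -0.22 with numbers 1 to 3 alone and Smad3 at 0.087 with numbers 4 to 6 alone. With library totals and no scaling factor, Acvr2a had 37.5 CPM in CD47-KO.

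Leaving out each library in turn gave 2178 to 3881 genes and 2 to 3 of the 10 for CD47-KO against sedentary (2361, 2245 and 2178 without CD47-KO 1, 2 and 3). Against exercise it gave 2292 to 4563 genes and 2 to 4 of the 10 (2292 without CD47-KO 2 and 2329 without CD47-KO 3). Signs turned against sedentary for Acvr2b (-0.19 to 0.099), Smad2 (-0.28 to 0.41) and Smad7 (-0.11 to 0.30), and against exercise for Acvr2b (-0.026 to 0.32), Gdf11 (-0.074 to 0.23) and Smad7 (-0.13 to 0.28). In exercise against sedentary they turned for Mstn (-0.20 to 0.20), Fst (-0.23 to 0.12), Tgfb1 (-0.36 to 0.040), Smad3 (-0.044 to 0.23) and Smad7 (-0.046 to 0.15). With at most 115 counts of Inhba in any library, depth limits what can be seen of that gene.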

Other observations

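Within single libraries the balance of receptor and ligand genes varied widely. Per length of transcript, Acvr2a was 13.7 to 17.6 times as abundant as Acvr2b in the libraries labelled CD47-KO. The ratio was 0.639 to 6.89 in sedentary and 1.05 to 6.89 in exercise libraries, so the CD47-KO libraries overlapped neither group. Acvr2a alone also lay above both groups, as did 15.7% of all genes against sedentary and 17.5% against exercise. Mstn was 9.64, 11.7 and 32.1 times as abundant as Gdf11 in the libraries labelled CD47-KO, 2.13 to 10.2 times in sedentary and 3.08 to 22.7 times in exercise libraries, so the groups overlapped. Mstn over Fst overlapped between all groups, at 21.6 to 204 times in CD47-KO, 7.38 to 73.6 times in sedentary and 23.9 to 137 times in exercise libraries. Smad3 exceeded Smad2 in all 15 libraries, by 5.90 to 36.8 times. The ratios of Acvr2a to Acvr2b and of Mstn to Gdf11 set a transcript poor in G and C against a richer one.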
